A study of Xenopus laevis with 3 samples.

Results

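The control stage 11 gastrula of *Xenopus laevis*, the African clawed frog, was described here from 1 array of the 3 in the series. Its members were every probe set of that array, ranked by signal, after the control probe sets of the manufacturer and the reporter probe sets were taken out, which left 32475 of 32635. The array held RNA of 50 pooled embryos, injected with water shortly after fertilization and frozen whole at stage 11, on a GeneChip *Xenopus laevis* Genome 2.0 array. The study made it as the reference for embryos given mRNA of the glycine receptor GlyR with its opener ivermectin, or of the 666 chimera, a dominant-negative KATP channel subunit. Those 2 arrays entered nothing below, and no array was compared with another. With 1 array there was no spread between replicates, so no standard deviation, p-value or test between samples was possible, and each signal is a single measurement of 1 pool.

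At stage 11 the frog embryo is in gastrulation. Mesoderm and endoderm turn inward around the blastopore, the Spemann organizer on the dorsal side secretes antagonists of BMP and Wnt ligands, and the ectoderm is being divided into neural plate and epidermis. The embryo still carries RNA laid down in the egg, beside RNA made since the zygotic genome was switched on at the midblastula transition. *Xenopus laevis* is an allotetraploid, so many genes have a copy on a long (.L) and on a short (.S) chromosome, called homeologs. In whole embryos, a low signal from fewer cells of a type and one from less RNA per cell cannot be told apart.

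The signal of a probe set is the brightness that the MAS5 algorithm computes from its probes, on a linear scale. It depends on the sequence of the probes as well as on the amount of RNA, so the ranks below order signals and not transcript numbers, and homeologs are given side by side with no order between them. The median signal was 93.3, with quartiles of 21.7 and 487 and a highest signal of 34442. A signal of at least 40 was taken as detected, and 20725 probe sets, or 63.8%, reached it. The last probe set inside had 40.01 and the first outside 39.995, and 3015 probe sets, or 9.28%, lay between 30 and 50. Of the 20725, 5190 had at least 1000 and 358 at least 10000. The 325 brightest probe sets, the top 1%, carried 22.9% of the summed signal, and all those under 40 together carried 0.77%.

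The array also holds 64 probe sets for reporter and vector sequences that the embryos do not carry. Of these, 63 had signals between 0.404 and 28.6 with a median of 7.54, all under 40, and 7 of the 63 reached 20. The other 1 had 27164 and is directed at cre, a sequence that is also spiked into every hybridization. The hybridization spike-ins stood in the order in which they are added, with medians of 704 for bioB, 1706 for bioC, 6466 for bioD and 21293 for cre. The polyA spike-ins are added to the RNA before labelling, in the rising order lys, phe, thr and dap. Over all their probe sets the medians were 161, 143, 76.9 and 938, which is not that order. At their 3′ probe sets alone the medians were 198, 356, 574 and 2408, which is that order. Signals differed along some control transcripts: actin had 20117 at the 3′ end, 2501 in the middle and 2.56 at the 5′ end, gapdh had 1414, 879 and 312, and ef1a 44.6, 23.4 and 34.3. The labelling starts from the polyA tail, and the place of the other probe sets in their transcripts, with its part in their signals, was not tested.

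**Figure D1:**
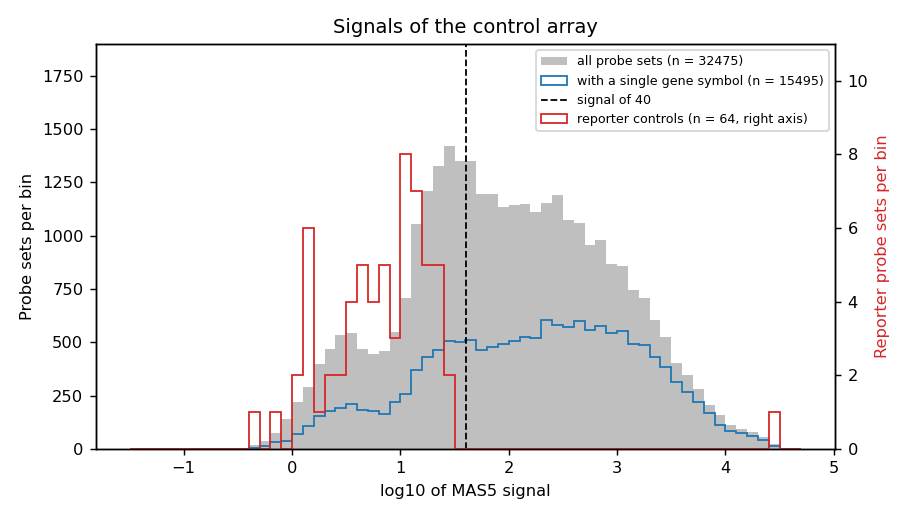
The histogram shows log10 signals of the control array for all 32475 probe sets (grey), the 15495 with a single gene symbol (blue) and the 64 reporter probe sets (red, right axis). The dashed line is a signal of 40, and 63 of the 64 reporter probe sets lie at or under 28.6.

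A single gene symbol was given for 15495 probe sets, which stand for 9273 genes when homeologs are joined. At least 1 probe set reached 40 for 7109 of these genes, or 76.7%, and this is the share to read the gene groups below against. The median of the brightest signal over all 9273 genes was 293. Named probe sets had a median of 198 and the others one of 53.1, so the named ones are not an even sample of the array.

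The highest signal of all was at odc1.L, the ornithine decarboxylase of polyamine synthesis and a common loading control in frog embryos, with 34442, and its other probe sets had 14378 and 10183. The epidermal keratin krt70 had 26531 at .S and 13325 at .L, and the uroplakin upk1a 25847 and 4158. Chromatin proteins were also there: hmgb2 had 26221 at .L and 20567 at .S, hmgb3 19745 and 24507, hmgn1.S 25653, the histone variants h2az1 23627 and 23356 and h3-3b 21819 and 20587, and nucks1 22399 and 7853. Nuclear RNA-handling proteins made up another group among the 30 named genes with the highest signals.

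That group holds the SR splicing factors srsf5.S, srsf2.L, srsf1.L and srsf3.S, with brightest signals of 25952, 25597, 23833 and 22115, the spliceosome protein snrnp27.S with 24883 and the RNA helicase ddx39a with 21522 at .L and 17181 at .S. The nucleolar protein ncl.S had 21702, the arginine methyltransferase prmt1 24433 and 20414, and the cold-inducible RNA-binding protein cirbp 23227 and 23622. Protein synthesis and folding were represented by eef1a1o, the oocyte form of elongation factor 1 alpha, with 21781 at .S and 2802 at .L, and by eif3a, with 24198 at .L and 2303 at .S. They were also represented by rps2.L with 24023 and by the chaperones hspa8.L and hspa1l.S with 24646 and 24219. The latter group covers both the making and the folding of proteins. The mitochondrial ADP/ATP carrier slc25a5.L had 25329. A transcription factor of Wnt-exposed mesoderm, sp5l.S, had 22777, and the hyaluronan synthase has1.S had 22145. The remaining 4 of the 30 were ccdc50.L with 30235, aifm2.S with 26013, ctsv.L with 22653 and tmem126a.L with 21939.

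The brightest probe set can cross-hybridize with other transcripts for 25 of these 30 genes, by the ending of its identifier. Such probe sets are far fewer among all those detected: of the 20725 at or above 40, 17790 remained without them. The highest ranks thus rest mostly on probe sets of this kind. For 2 of the 30 another probe set was under 40: aifm2.S also had 20.1 and hmgn1.S 33.9. Both homeologs are named on the array for 12 of the 30, and in all 12 both reached 40, against 73.3% of all such pairs. At least 1 homeolog of each of the 12 was above 40 by the way the 30 were chosen. Of the 100 brightest probe sets, 72 carry a single symbol, so the others stay unnamed here.

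Families grouped by symbol, chosen after the highest signals had been seen, differed in the share of their genes that reached 40. All 11 SR splicing factors did, with a median of 9824 over 23 probe sets, and all 14 heterogeneous nuclear ribonucleoproteins, with a median of 7759 over 39. These nuclear RNA-binding families held 11 and 18 of the 325 brightest probe sets. Cytosolic ribosomal proteins reached 40 for 67 of 69 genes with a median of 5492 over 144 probe sets, the exceptions being rpl3l with 10.8 and rpl19-b with 0.534. Initiation and elongation factors of translation did so for 41 of 42 with a median of 2230.5, and proteasome subunits for 30 of 32 with 1157, without psmb9 at 21.3, a subunit of the immunoproteasome, and psmb7.2 at 0.726. All 56 subunits of ATP synthase and the respiratory chain that are named were detected, the lowest being ndufs4 with 90.9, and their median was 1198.

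Other families were divided. Of 21 keratins 8 reached 40: krt70, krt7 with 18949, krt8.1, krt12.4, krt18.1, krt12.5 with 5689, krt19 and krt18.3 with 234. The other 13, such as krt62 with 1.54, krt51 with 1.93 and krt17 with 36.4, were under 40. Of 9 voltage-gated potassium channel genes only kcnq1 reached 40, with 981, while kcna1, kcna2, kcna3, kcna4, kcna7, kcnb2, kcnb2-a and kcnd3 lay between 1.08 and 36.5. Among tubulins, tuba1c had 9240.4, tuba5 7263, tubb4b 5149.9 and tubb2b 128, and the neuronal tubb3 1.93. Histones reached 40 for 16 of 19 genes and macroh2a1 had 3.08. Genes with an slc symbol, nearly all of them solute carriers, stood near the share of all named genes, with 135 of 177. The count includes slc9a3r1, slc9a3r2 and slc7a6os, which carry the symbol but are not carriers.

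Genes of the maternal and germ plasm list were detected for 40 of the 41 on the array, against 76.7% of all named genes, with a median brightest signal of 729.7 against 293. The exception was sybu.S, a vegetally localized RNA whose protein links cargo to microtubules and acts in dorsal axis formation, with 16.9. Other genes whose RNA is localized to the vegetal cortex of the egg were detected. The T-box factor vegt, which starts endoderm and mesoderm, had 3905 at .L and 7477 at .S, and the ligand wnt11b.L had 4844. The vegetal ligand gdf1.S, known as Vg1, had 729.7, the trim36.L ubiquitin ligase had 171, and igf2bp3.S, which binds vegetal RNAs, had 8523 and 1279.6. The maternal Wnt effector ctnnb1 had 13958 at .L and 13463 at .S, and the maternal SoxB factor sox3 had 4939 and 7764. For the genes of this list, RNA kept from the egg and RNA made since by the embryo cannot be told apart here. Both vegt and sox3 also stand on other lists below, of endoderm and of neural genes.

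Germ plasm is the cytoplasm that the future germ cells inherit, and several of its RNAs were at or above 40 at their brightest probe set. The helicase ddx25.L, also called DEADSouth, had 932, pgat.L 817, the RNA-binding proteins dazl.L 365, nanos1.L 214 and dnd1.L 172, velo1.L 367, grip2.L 237, tdrd6.L 271 and ddx4.L 2340.1. Other probe sets of ddx4.L and grip2.L were under 40, with 22.6 and 14.4. Transcripts of the oocyte and egg coat were also detected. The zona pellucida proteins zp2.L, zp4.S, zpd.L and zpax.L had 1036, 752, 237 and 117, the zygote arrest genes zar1.S and zar2.S 418 and 708, and the meiotic kinase mos.L 599 and 99.7. The polyadenylation factor cpeb1, which awakens stored RNAs in the oocyte, was close to the floor, with 59.6 at .L and 35.6 at .S.

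For several proteins the egg uses a form of its own and the embryo another, and the 2 are set out next to each other here without an order, since their probe sets differ. Of cyclin A, ccna1, the form of early cleavages, had 154 at .L and 1152 at .S, and ccna2 9319 and 3174. Of poly(A)-binding protein, the embryonic pabpc1l, or ePAB, had 694 and 162, and pabpc1 9358 and 15373. Of the nucleoplasmin family, npm2 had 1193 and 1237 and npm1 13017 and 6023. Both forms of each protein were thus detected at stage 11.

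The linker histone of the oocyte, h1-8.S, had 4806, and another linker histone, h1-10.S, had 3134. The mitotic inhibitors wee2 and wee1 had 169.9 and 407, and 1390.1 and 1564, at .L and .S. For the Y-box protein of the oocyte, ybx2, the signals were 274 and 573. B cyclins were all detected: ccnb1.S had 538, ccnb1.2 8230.4 at .L and 9874 at .S, ccnb2 4299 and 4798 and ccnb3 2366 and 3752. The phosphatases that activate cyclin-dependent kinases were split, with 2154 at cdc25a.L, between 9.88 and 21.7 at the 3 probe sets of cdc25a.S, 113 at cdc25b.L and 4402 at cdc25c.L. Maintenance methylation is served by dnmt1, with 650.4 and 1181. Of the pou5f3 factors, relatives of mammalian Oct4, the oocyte form pou5f3.3.L had 65.3, and pou5f3.2.L and pou5f3.1.L had 6357 and 5094, with a second probe set of the latter at 3.34. The only gene of this list under 40 was eef1a2.S, the muscle and neuronal form of elongation factor 1 alpha, with 9.14.

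Reference genes, those that laboratories use to normalize, were all detected, 19 of 19, beside 76.7% of all named genes, with a median of 6075. Beside odc1.L they included h3-3b, rps18.L with 17094, actb.L with 15369, eef2.1.L with 10534, ppia with 6711 at .L and 9439 at .S, rpl8.S with 8458 and sdha with 2631 and 1101. The lowest were hprt1.L, with 116, and b2m.S, with 199. Only hprt1.L had a probe set under 40, at 24.1.

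**Figure D2:**
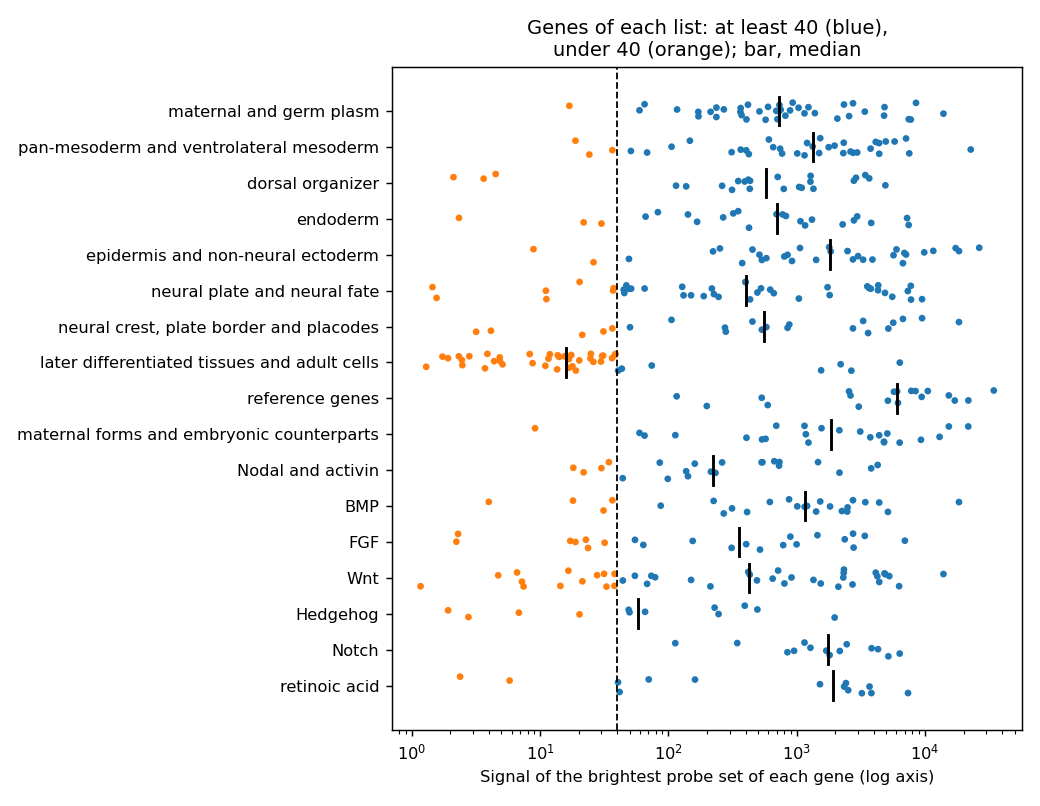
Each point is 1 gene, placed at the signal of its brightest probe set on the control array (log axis), for the 17 gene lists. Blue points are at or above 40 (dashed line), orange ones under 40, and the bar is the median. The list of later tissues and adult cells has a median of 16.0, and reference genes have one of 6075.

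Of the marker genes chosen for the germ layers, 21 of the 24 were named on the array and all 21 reached 40 at a probe set, with the lowest at 314, so all layers were represented in the pool. Of the 9 markers named for later tissues and adult cells, ckm.L alone did, with 74.3. The marker ins had 11.9 at .L and 38.8 at .S, just under the floor. These markers are few, and other genes of the same lists lay on both sides of the floor, as given below.

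Mesoderm genes were detected for 34 of 37, or 91.9%, beside 76.7% of all named genes, with a median of 1335. The T-box factor tbxt, or Brachyury, which marks the whole mesodermal ring, had 7556 at .L and 7341 at .S. Its relative eomes had 745 and 296, tbx6.L 2633 and the presomitic factor msgn1 2330.4 and 535. Muscle-determining factors were also present, myf5.L with 1778 and myod1 with 398 and 657. Caudal factors, which pattern the posterior, had 5809.9 at cdx1.S, 2967 at cdx2.L and 4954 at cdx4.L.

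Ventral and lateral mesoderm responds to BMP and Wnt. The homeobox repressor ventx2.1 had 4405 and 3493 at .L and .S, ventx3.2.S 1335, ventx1.2.S 770.5, the Wnt ligand wnt8a.L 2313, and gata2.L, needed for blood, 7132. The gata2 gene is also on the list of epidermis and non-neural ectoderm, and which tissue its signal came from was not tested. For ventx1.1.L 7 probe sets ran from 15.7 to 609, and ventx1.1.S had 1012, which shows how widely probe sets of 1 symbol can differ. The secreted Sizzled protein, szl, had 1208 and 978, and the apelin receptor aplnr, of blood and vessel precursors, 1499 and 1195. The genes under 40 were lmo2.S with 36.6 and tal1.S with 24.2, both factors of blood formation, and fgf4 with 18.9 and 4.23.

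Organizer genes were detected for 21 of 24, or 87.5%, beside 76.7% of all named genes, with a median of 573. The homeobox factor gsc had 432 at .L and 171 at .S, the notochord gene named not had 651 and 794, otx2 had 3683 and 1227, and lhx1.L 1097. The forkhead factor foxa4, of axial mesoderm, had 2904 and 2475, and hesx1, of the anterior, 1286 and 262. These transcription factors were all detected at both homeologs where both are named.

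The secreted antagonists of the organizer were detected as well. Those that bind BMP were nog.L with 314 and fst.L with 263, and the atypical ligand admp.S had 3433. Those that bind Wnt were dkk1.S, with 420.0, frzb, with 1353 and 1309, and frzb2.L, or Crescent, with 713. Cerberus, cer1.S, which binds BMP, Wnt and Nodal ligands, had 2796 at 1 probe set and 7.40 at another. The earliest dorsal genes, transcribed soon after the midblastula transition, lay in the range of the reporter probe sets with 1 exception: sia1.L had 4.51, sia2.S 3.63 and nodal3.2.L 2.12, while nodal3.1.L had 138. The signaling molecule shh.L of the axial midline had 394. The BMP antagonist chrd was not analysed here.

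Endoderm genes were detected for 20 of 23, or 87.0%, beside 76.7% of all named genes, with a median of 697. The HMG-box factor sox17a had 692 at .L and 1165 at .S, and sox17b.1 41.5, close to the floor, and 1072. Zinc-finger factors were all detected: gata4 had 1319 and 2285, gata5 825 and 401 and gata6 1298 and 1318. A second probe set of gata4.L had 1.23. The highest of the list beside vegt were a2m.S, which frog embryologists know as endodermin, with 7264, and the ligand gdf3.S, known as Derriere, with 3814.

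Mix-type homeobox genes, which act early in endoderm and mesoderm, were detected as well, mixer with 252 and 321, mix1 with 387 and 426, bix1.3 with 268 and 149, bix1.1.L with 82.9 and bix1.2.S with 66.5. The genes under 40 were the liver and gut factor hnf4a.S, with 2.34, and the Nodal ligands nodal2.L, with 30.1, and nodal6, with 21.9 and 18.0. Pioneer factors foxa1 and foxa2.L had 697 and 328, and 778.

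Epidermis and non-neural ectoderm genes were detected for 30 of 32, or 93.8%, beside 76.7% of all named genes, with a median of 1820. Keratins were prominent: krt12.4, the epidermal keratin used as a marker, had 9882 at .L and 6258 at .S, krt8.1.S 11626 and krt18.1 6006 and 3037. The adhesion protein epcam had 11725 and 17371, the tight junction protein cldn6.1 6917 and 4569.9, and the lectin itln1.L 5694. Transcription factors of the layer were tfap2a with 6742 and 6229.6, grhl3 with 2726 and 3012, dlx3 with 1742 and 3301, msx1 with 2749.9 and 1232 and foxi4.2 with 1796 and 1352. Each of these was detected at both homeologs.

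The genes of the list under 40 were myb.S, with 8.89, and tp63, the basal keratinocyte factor, with 26.1 at .L and 16.0 at .S. Genes of multiciliated cells, a later epidermal cell type, lay on both sides of 40. There were 214 and 921 at foxj1, 1063 and 341 at ccno, 49.3, close to the floor, at mcidas.S and the 8.89 of myb.S. The inhibitor id3, a BMP target, had 9222 and 18443.

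Neural genes were detected for 34 of 41, or 82.9%, near the 76.7% of all named genes, with a median of 399.9. Early factors of the neural plate were at or above 40: zic1.S had 9506, zic2 4885 and 4354, sox2.L 3788, sox11.S 5567, irx2.L 4327, sall1.L 7799.5, and geminin, gmnn, which holds cells in an early neural state, 7362 and 6459.8. The regional factors lay on both sides of 40. Of forebrain and eye, rax had 49.0 and 65.3, six3 218 and 10.5, pax6.L 664 and six6 11.1 and 2.41. Of midbrain and hindbrain, en1.L had 1.45, en2 1.21 and 20.3 and egr2.L 1.56.

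Genes of neurons and their precursors were divided. The proneural neurog2 had 45.1 at .L and 401 at .S, and the Notch ligand dll1.L, which primary neurons express, 4309.7. Of the later factors, neurod1 with 37.1 and 18.3 and neurod4.L with 11.2 were under 40. Other genes of the list reached it: ebf2 had 22.2 at .L and 45.4 at .S, and the tubulin tubb2b 128. The RNA-binding elavl3.L had 623 and elavl4.L 47.1.

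Genes of neural crest, plate border and placodes were detected for 17 of 22, close to the 76.7% of all genes. Genes of the plate border included pax3 with 3608 and 325, hes4 with 5192 and 2291, myc with 5669 and 2529 and zic1, tfap2a, msx1 and dlx3 as above. Of crest factors, foxd3 had 233 and 453, sox8.L 276, sox9 374 and 877, snai2 90.6 and 106 and ets1 281 and 124, and of placode factors foxi1.L had 581, dlx5.L 536 and eya1.L 50.3. All of these were at or above 40 at their brightest probe set. The 5 genes of the list under 40 were the crest factors sox10.L with 3.18, twist1.L with 36.6 and tfap2e.L with 21.3, pax7.L, of border and crest, with 4.14, and pax8.L, of the ear placode, with 31.2.

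**Figure D3:**
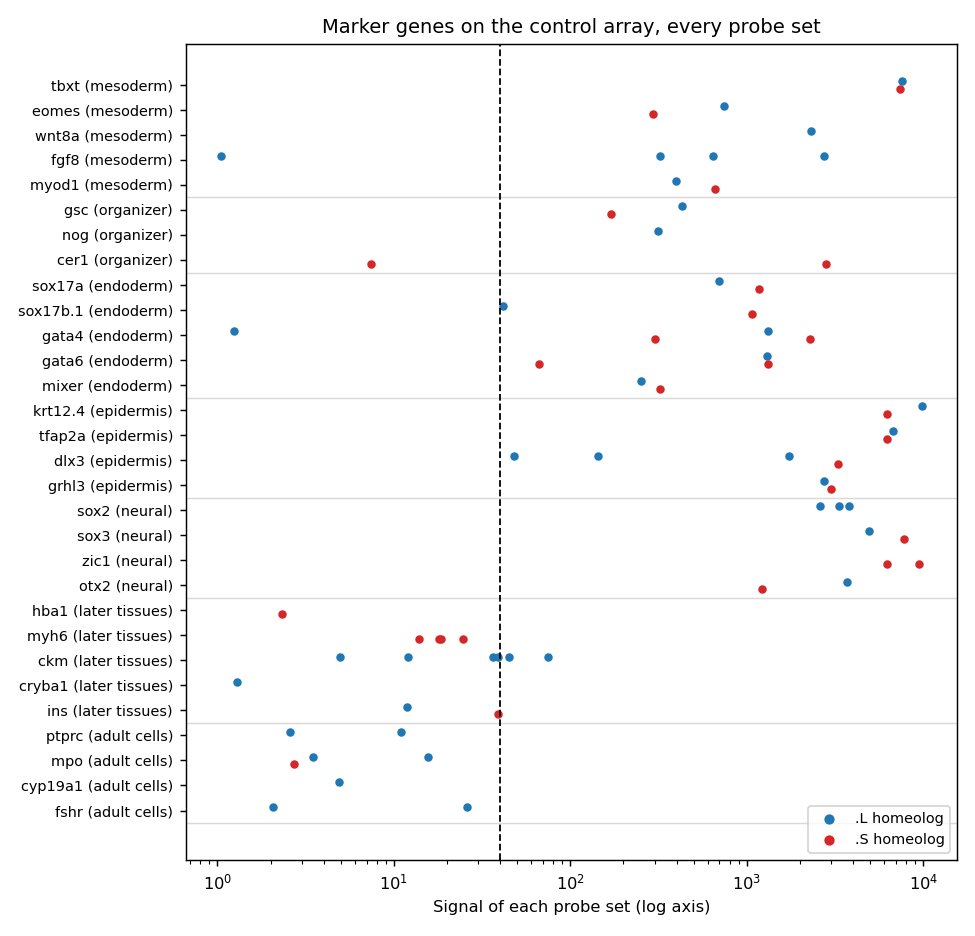
Every probe set of each marker gene is a point at its signal on the control array (log axis), blue for .L and red for .S, with a dashed line at 40. All 21 germ layer markers have a point to the right of the line, and of the 9 others only ckm has.

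Genes of later tissues and of adult cells were detected for 7 of 45, or 15.6%, with a median brightest signal of 16.0. The count was 17 at a floor of 20 and 4 at a floor of 100. Those of the eye lens and retina, cryba1.L, crybb1 with 1.27 and 2.48, opn1sw.L with 1.92 and gnat1 with up to 11.6, lay in the range of the reporter probe sets. So did the heart genes tnnt2.L with 1.74 and myh6.S with 24.7, the liver and gut genes ttr.L, apoa1 and fabp2, none over 8.31, and the neurofilament nefm with 2.46 and 1.21. Genes of white blood cells (ptprc.L 11.0, mpo 15.5 and 2.72) and ovarian follicle (cyp19a1.L 4.87, fshr.L 26.0) were also under 40.

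The 7 exceptions were hba-l5.L, actc1.L, syt1.L, myl1, ckm.L, acta1.S and mylpf.L. A probe set of the larval globin hba-l5.L had 6373 and another 34.8, while hba1.S had 2.33, hba2.L 2.81 and hba3.L 19.0. The cardiac actin actc1.L, which the muscle precursors of the frog embryo make early, had 2672 and 939, the latter at a probe set not prone to cross-hybridization. The synaptic protein syt1.L had 2206 and the myosin light chain myl1 1553 at .L and 163 at .S. The other 3 were near the floor, ckm.L with 74.3, mylpf.L with 43.4 and acta1.S with 40.6.

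Nodal ligands pattern mesoderm and endoderm through activin receptors and Smad2. Genes of this pathway were detected for 18 of 22, or 81.8%, near the 76.7% of all named genes. Beside gdf3.S and gdf1.S, the ligand nodal.L had 142, nodal1.L 34.4 and inhbb.L, which encodes an activin subunit, 44.1. The co-receptor tdgf1.3.L had 4285, the receptors acvr2b 37.8 and 1469 at .L and .S, acvr2a 533 and 325 and acvr1b.S 215. Of the intracellular mediators, smad2 had 669.6 and 320.4, smad3.L 18.2, smad4.L 542 and the DNA-binding partner foxh1.L 735. The feedback inhibitors lefty and smad7.L had 233 and 184, and 2159.

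BMP signaling sets the ventral side, and 21 of its 25 genes were detected, or 84%, beside 76.7% of all named genes. The ligand bmp4 had 547 at .L and 2496 at .S, bmp7.1.L 1420.0 and bmp2 164 and 619, while gdf6.S had 3.99. The receptors bmpr1a and acvr1 had 5149 and 365, and 672 and 873, and bmpr2.S 31.3, under 40. The effector smad1 had 2481 and 2317 and smad9.S 36.6. Extracellular modulators included twsg1 with 757 and 1822, the protease tll1.S with 1156 and the pseudoreceptor bambi.L with 1528, and the antagonist grem1.L was under 40. At all 14 genes of this list with both homeologs named, both reached 40, against 73.3% of all such pairs.

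FGF genes were detected for 15 of 22, or 68.2%, beside 76.7% of all named genes. With 22 genes this gap is not read as a trait of the pathway. Ligands were mixed: fgf8.L had 2754, 646, 322 and 1.04 at its 4 probe sets, fgf3.L 405 and fgf20.L 312, and fgf1.L, fgf2, fgf4, fgf9.S and fgf13.L were under 40, between 2.23 and 23.7. All 4 receptors reached 40, fgfr4 with 1915 and 3401, fgfr1.L with 2783, fgfr2.L with 518 and fgfr3 with 63.8 and 40.6. The adaptor of the receptors, frs2.L, had 2373. Targets and feedback regulators were the ETS factor etv4.L with 6980.0, the phosphatases dusp6 with 434 and 786 and dusp5.S with 894, and spry2.L with 743, while spry1.S had 17.2.

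Wnt genes were detected for 29 of 42, or 69.0%, beside 76.7% of all named genes, a gap that is again not read as a trait. Of the ligands wnt11b.L, wnt8a.L and wnt5b.S had 4844, 2313 and 803, wnt11.S 150.5, wnt8b.S 73.7 and wnt3a.S 68.3. Those under 40 were wnt1.L, wnt2b.L, wnt4.L, wnt5a.S, wnt6.S and wnt7b.L, between 1.17 and 38.0. Among Frizzled receptors fzd7.L had 4258, fzd10 353 and 1543, fzd2.S 913, fzd3.L 491 and fzd8.S 4922, and fzd8.L 7.82.

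Inside the cell, dvl2.L had 2328, dvl3.L 431 and dvl1.L 7.23. The repressor tcf7l1 had 5278 and 217, lef1.S 213 and tcf7.S 651, while the 5 probe sets of tcf7l2.L were all under 40, the brightest at 27.9. The target axin2 had 6298 and 3206 and sp5 4139.7 and 82.2, and axin1 14.4 and 3.52. Also under 40 were the co-receptor lrp6.L with 31.6, the kinase gsk3b.L with 38.1 and the receptors fzd1.L with 16.6 and fzd5.S with 33.0. Genes of planar polarity, which guides convergent extension, were detected: vangl2 had 4408 and 3275, prickle1 2728 and 2497 and ror2.L 2116.

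Hedgehog genes were detected for 8 of 12, or 66.7%, beside 76.7% of all named genes, a gap not read as a trait. Their median was 57.9, and 5 reached a floor of 100. The ligands ihh.S and dhh had 2.77, and 6.84 and 1.87, beside the 394 of shh.L. The transducer smo had 1979 at .L and 35.9 at .S, the co-receptor boc.L 229.6, the antagonist hhip.L 20.3, the receptor ptch1.S 49.9, and of the transcription factors gli3.L had 495, gli2 214 and 246 and gli1.S 1.92.

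All 14 Notch genes reached 40, beside 76.7% of all named genes, with a median of 1756. The receptor notch1.S had 3843, the ligands dll1.L, dlc.L and jag1.L 4309.7, 1809.7 and 848, and the DNA-binding mediator rbpj.S 2171. Targets were nrarp.S with 6361, hes5.1 with 2459 and 672, hes1 with 956 and 285 and hes4 as above. The glycosyltransferase lfng was split, with 32.4 at .L and 113 at .S.

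Retinoic acid genes were detected for 12 of 14, or 85.7%, beside 76.7% of all named genes, with a median of 1933. Enzymes that make it were aldh1a2.L, with 3829.7, and rdh10, with 2424 and 382, and those that remove it or its precursor were cyp26a1 with 2346 and 2059, cyp26c1.S with 1521 and dhrs3.L with 3703. The carrier crabp2, which brings retinoic acid to its receptors, had 3226 at the brightest of its 5 probe sets, the receptor rarg.S 7389.6, rara.L 161, rxrb 2524 and 2299 and rxra.L 70.4. The sister enzyme aldh1a3.L had 5.79 and the retinol carrier of blood, rbp4, 2.38 and 1.23, so genes of both synthesis and removal were detected while these were under 40.

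The hox clusters, which set position along the trunk, were represented by 23 genes and 38 probe sets. At least 1 probe set reached 40 for 19 of the 23 genes, or 82.6%, near the 76.7% of all named genes. At a floor of 100, which 6110 of the 9273 named genes reached, 8 of the hox genes remained. In paralog groups 5 to 8 these were 6 of 8 genes: hoxa7.L had 832, hoxc6.S 723, hoxb6.S 430.3, hoxc5.L 419, hoxc8.S 232 and hoxb7 59.3 at .L and 167 at .S, while hoxd8.L had 78.0. In groups 2 to 4 it was 1 of 5, hoxb4.S with 459, beside hoxa2 with 39.3 at .L and 64.6 at .S, and hoxb2.S, hoxa3.S and hoxd3.L between 49.5 and 74.0, and in groups 9 to 13 1 of 10, hoxb9 with 209. Genes between 40 and 100 in the last range were hoxa9.S with 99.2, hoxc10.L with 87.5, hoxd10.L with 55.2, hoxd9 with 55.2, hoxd11.L with 55.1 and hoxd13.S with 51.6, and those under 40 were hoxa11.S, hoxc12.L and hoxa13.S, with up to 27.7, beside hoxb5.S with 37.2. Every probe set of hoxc6.S at or above 40 can cross-hybridize, and its only probe set that is not of this kind had 24.99. A second probe set of hoxb6.S had 25.57. Without probe sets that can cross-hybridize, 18 of the hox genes reached 40. When all probe sets of a gene had to reach 40, 13 of the 23 did.

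**Figure D4:**
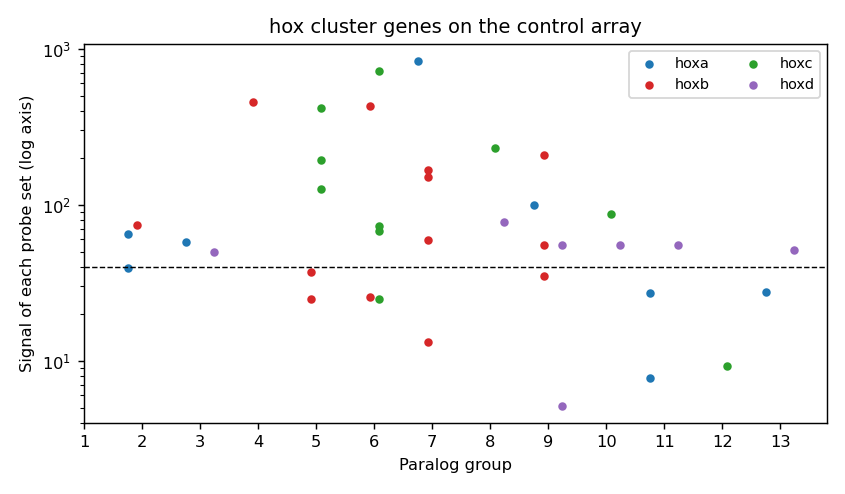
The signal of each hox probe set on the control array (log axis) is plotted by paralog group, coloured by cluster, with a dashed line at 40. The highest points lie in groups 4 to 7, and the points of groups 10 to 13 lie at or under 87.5.

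Both homeologs are named for 2009 genes. Both reached 40 for 1473 of these, or 73.3%, only .L for 161, only .S for 118 and neither for 257. The 279 divided pairs, 13.9%, often lay near the floor: the dimmer homeolog was between 20 and 40 in 136, and the brighter one was under 100 in 94. In 37 pairs 1 homeolog had at least 400 and the other under 20. At a floor of 20, 141 pairs had neither homeolog detected and at a floor of 100, 393. Without probe sets that can cross-hybridize, 1811 pairs were left, with both at 40 in 1289, only .L in 160, only .S in 120 and neither in 242. From which homeolog the signal of a cross-hybridizing probe set came was not tested. The 10 divided pairs listed next have the widest ratios, but every dim signal among them lies in the range of the reporter probe sets, so neither the size nor the order of the ratios can be read. They were nipa2, with 2441 at .L and 1.14 at .S, prdx6 with 1.69 and 2769, acp5 with 1.94 and 3159.7, anxa1.2 with 0.550 and 741, sult6b1.5 with 1733 and 1.57, rbm42 with 4052 and 4.73, vps35 with 2.82 and 2379, tuba1c with 12.3 and 9240.4, cyp27c1 with 3.31 and 2354 and fzd8 with 7.82 and 4922. They include an alpha tubulin, a peroxiredoxin, a retromer subunit and a Frizzled receptor. The dim homeolog was measured by a single probe set in 245 of the 279 divided pairs, and in all 10 of these.

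Of the gene lists, those of BMP, reference, neural crest, endoderm and later tissue genes had no divided pair, among 14, 8, 11, 11 and 14 pairs. In the list of later tissues and adult cells, neither homeolog reached 40 in 13 of the 14. With so few pairs these lists cannot be told apart from the 13.9% divided over all pairs. The maternal list had 1 in 16, cpeb1.

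**Figure D5:**
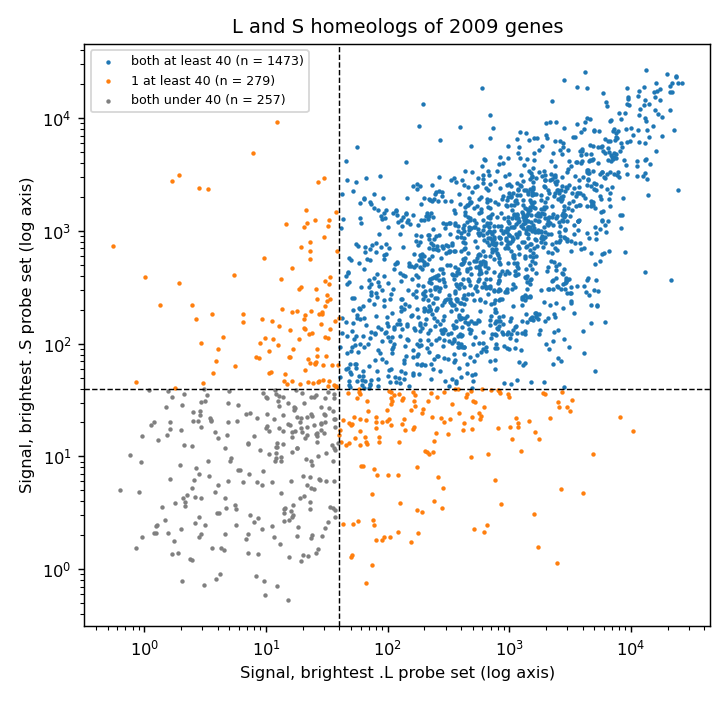
Each point is a gene with both homeologs named, at the brightest .L signal (x axis) and the brightest .S signal (y axis), both on log axes. Blue points have both at or above 40 (1473), orange points 1 of them (279) and grey points neither (257).

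How far 1 signal stands for its gene can be seen where a symbol has several probe sets. For 2702 symbols with at least 2, the pooled standard deviation of log2 signal between probe sets of 1 symbol was 2.28, and the median gap between the brightest and the dimmest was 2.50 on the log2 scale. In 832 of these, or 30.8%, some probe sets were at or above 40 and others under it, as for cer1.S, gata4.L, fgf8.L and hba-l5.L above. This spread is a property of the probe sets and not an error between embryos, and it is wide against the gaps between many of the signals given here. A gene under 40 at its only probe set was not detectable there, which does not show that its RNA was absent.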

How the data were processed

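Biotin-labelled RNA of the pooled control embryos was hybridized to the *Xenopus laevis* Genome 2.0 array. The authors computed linear signal intensities with MAS5, and these intensities were deposited, 1 value per probe set and no detection calls. The scaling target was not given in the sources used here. Its choice would multiply every signal and so move the side of the floor.

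Probe sets were named where the platform annotation gave a single gene symbol (15495; 279 had several and 16701 none), and 15384 were matched to RefSeq by gene ID. Control and reporter probe sets (160) were left out. A floor of 40 stood for a present call. A gene counted when any probe set reached it. Identifiers ending in _s_at, _x_at or _a_at were taken as able to cross-hybridize. Counts were made in Python 3.11 with pandas 2.3.3 and drawn with matplotlib 3.10.9, and the counting was tested on simulated data. No statistical test was made, since 1 array has no replicate, and its precision is limited by that number. The arrays of the embryos given GlyR mRNA with ivermectin and of those given the 666 chimera, 2 in all, were not used.

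The 17 gene lists held 476 symbols, of which 398 were matched. The members and lists were chosen with earlier results of these data known. Named by rule were the 30 genes with the highest signal, in each list the 5 highest and up to 5 lowest with all probe sets under 40, with L and S values, all genes of the list of maternal forms, the 10 divided pairs with the widest ratio and all hox genes. All other genes in the text, and the families, were chosen after their values were seen. Alternatives were floors of 20 and 100, a count without such cross-hybridizing probe sets, counting a gene only when all its probe sets reached the floor, and adding 32 before log2 for the spike-ins.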

Additional observations from a re-analysis of the deposited data

How the results depend on the processing

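The number of probe sets detected changed with the floor: 20725 at a floor of 40, 24831 at 20 and 15870 at 100. An alternative value was taken as unchanged within 1.5 times of the value reported, or within the spread given. This rule is wide, and the probe set counts just given fall inside it. A list with most of its genes detected cannot rise that far, so for it the rule could not show a rise. Asking all probe sets of a gene to reach 40 can only lower a count, and these falls lay inside the rule. All named genes went from 7109 to 6038, retinoic acid genes from 12 to 8 and neural genes from 34 to 26. Genes of neural crest, border and placodes went from 17 to 13 and maternal and germ plasm genes from 40 to 35. By this rule 151 of 158 alternative values were unchanged, with other floors, without probe sets that can cross-hybridize or with all probe sets of a gene asked to reach the floor. The exceptions among them were the genes of later tissues and adult cells, 7 at a floor of 40, of which there were 17 at a floor of 20 and 4 at a floor of 100, and the Hedgehog genes, 8 at a floor of 40 and 5 at a floor of 100, since ptch1.S with 49.9, cdon.L with 49.1 and sufu.L with 65.9 lie between these floors. Among counts whose alternatives were chosen after seeing the data, the hox genes went from 19 to 8 at a floor of 100, the homeolog pairs with neither detected from 257 to 141 at a floor of 20 and to 393 at a floor of 100, and the voltage-gated potassium channels from 1 to 3 at a floor of 20. Weak signals limit what can be said, since 4106 probe sets, or 12.6%, lay between 20 and 40, where 7 of the 63 reporter probe sets also lay. No paired analysis was possible because each condition has 1 array and no replicate.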
